A study of Homo sapiens with 6 samples.

Results

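Cells make cholesterol and fatty acids under the control of the sterol regulatory element-binding proteins (SREBPs), transcription factors that are made as precursors in the membrane of the endoplasmic reticulum (ER). The escort protein SCAP carries the precursors to the Golgi for cleavage when membrane sterol is low, and the INSIG proteins hold SCAP back in the ER when sterol is high. The genes described here are 31 named members of this system among the 64299 genes of the count table, found by matching the Ensembl identifier without its version. They fall into 19 sterol genes, 7 fatty acid genes and 5 SREBP regulators of the ER membrane. All 31 were found, and all 31 passed the filter on low counts.

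RNA was sequenced from HEK293T cells, a transformed human embryonic kidney line, with 3 libraries labelled ERbeta and 3 labelled EV_Ctrl. The ERbeta cells had been transfected with a plasmid for ERbeta, also written ER-β, which from background knowledge of the study is an artificial β-sheet protein sent into the ER and not the estrogen receptor. The EV_Ctrl cells had received the empty plasmid, and both groups had been given 1 µg of plasmid with the lipid reagent FuGene 6. The series text calls the line HEK293, and the share of cells that took up plasmid is not given in the sources used here. The labels number replicates 1 to 3 and name no separate cultures. The p-values therefore reflect spread among these libraries alone, and that spread may be technical.

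Total counts were 16531368, 15821501 and 13149304 in ERbeta 1 to 3 and 6833442, 27101644 and 10806375 in EV_Ctrl 1 to 3. The 6 markers listed for the line (KRT8, KRT18, VIM, NEFM, PAX2 and LHX1) had reads in every library. They summed to 1124 to 1224 TPM (the share of transcripts after division by exon length) in ERbeta and 1129 to 1233 TPM in EV_Ctrl. Most of that sum came from VIM (mean 687 TPM in both groups), KRT8 (256 TPM in ERbeta, 254 TPM in EV_Ctrl) and KRT18 (189 and 193 TPM). NEFM, PAX2 and LHX1 had lower means in ERbeta, at 17.95, 3.93 and 14.9 TPM, against 21.0, 6.30 and 19.9 TPM in EV_Ctrl. The 3 hepatocyte markers (ALB, AHSG and SERPINA1) summed to 0.552 to 0.722 TPM in ERbeta and 0 to 0.311 TPM in EV_Ctrl, near 0 in both groups. The libraries differed in a trend with the GC content of the genes. The mean log2 deviation of the genes above the upper quartile of GC content, minus that of the genes below the lower quartile, was -0.18, -0.06 and -0.68 in ERbeta 1 to 3 and 0.57, -0.14 and 0.48 in EV_Ctrl 1 to 3. EV_Ctrl 2 therefore stood with ERbeta 1 and 2 on this measure, apart from EV_Ctrl 1 and 3, and ERbeta 3 lay at the other end.

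The genes of sterol and fatty acid synthesis were active in these cells. Levels compared between genes are in TPM, which divides by the summed exon length of each gene. SCD, the desaturase that makes oleate, was highest at a mean of 719 TPM over the 6 libraries. It was followed by HMGCS1, the cytosolic HMG-CoA synthase, at 526 TPM, ACLY, which makes cytosolic acetyl-CoA from citrate, at 492 TPM, and FASN, the fatty acid synthase, at 349 TPM. INSIG1 was at 271 TPM and led the regulators, ahead of SREBF2 at 154 TPM, SCAP at 48.8 TPM, INSIG2 at 28.5 TPM and SREBF1 at 19.0 TPM. The lowest levels were those of MVK at 22.5 TPM, HSD17B7 at 13.3 TPM and CYP51A1 at 8.50 TPM among the enzymes. The CYP51A1 level is uncertain, because 79.4% of its exon bases are shared with other genes annotated on the same strand. HSD17B7 has a pseudogene copy that may share its reads. In ACAT2, which makes the acetoacetyl-CoA used by HMGCS1, 52.3% of exon bases are shared with genes of the opposite strand, and the strand setting of the counting is not given in the sources used here.

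**Figure D1:**
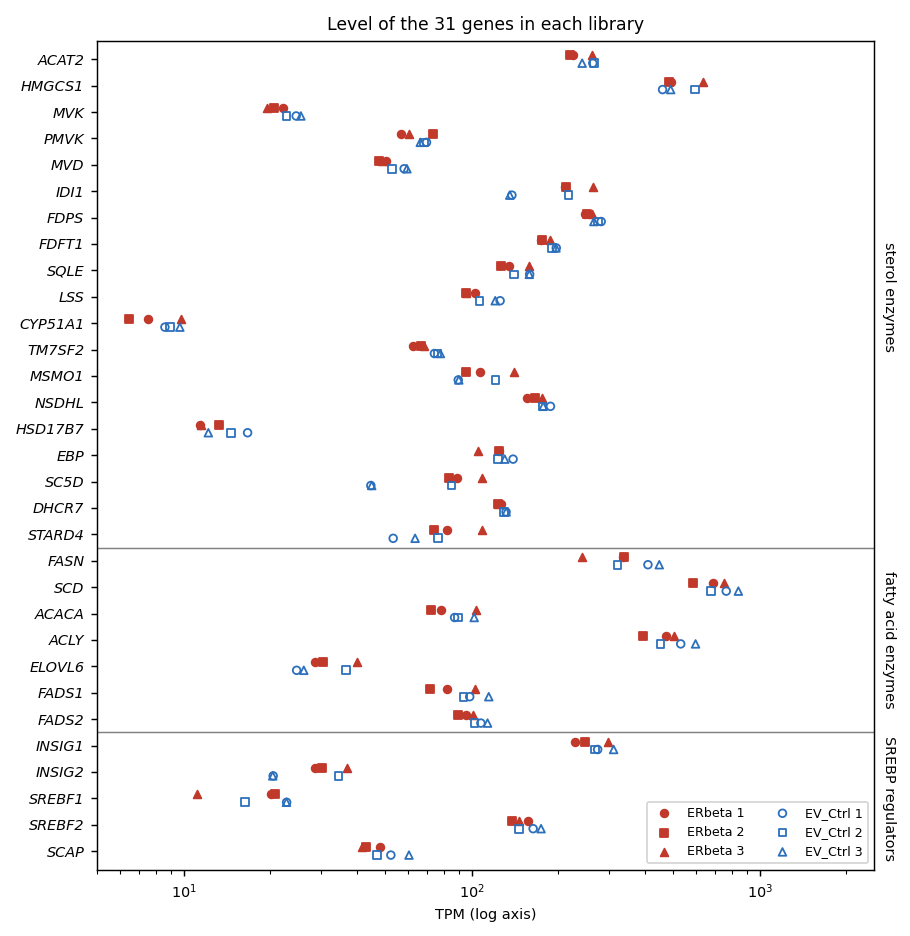
Level of each of the 31 genes in TPM (log axis), 1 point per library, with ERbeta libraries as filled red symbols just above the EV_Ctrl libraries as open blue symbols. The genes span from 8.50 TPM for CYP51A1 to 719 TPM for SCD (means over 6 libraries), and for most genes the points of both groups lie close together.

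The members together took 0.640%, 0.637% and 0.658% of all counts in ERbeta 1 to 3 and 0.719%, 0.679% and 0.743% in EV_Ctrl 1 to 3. These shares did not overlap between groups, but they take no account of library composition. In CPM, the library-scaled counts used from here on (scaled by trimmed means of M values), the sums were 6537, 6563 and 6939 in ERbeta and 6808, 6934 and 6988 in EV_Ctrl, which overlapped. The 7 fatty acid genes summed to 3181, 3070 and 3211 CPM in ERbeta, against 3511, 3246 and 3756 CPM in EV_Ctrl. Every ERbeta library was below every EV_Ctrl library for that sum, with 3211 CPM in ERbeta 3 close to 3246 CPM in EV_Ctrl 2. In TPM the same genes summed to 1781, 1583 and 1843 in ERbeta and 2024, 1771 and 2246 in EV_Ctrl, where EV_Ctrl 2 lay below ERbeta 1 and 3, so the separation was lost. The 19 sterol genes summed to 2690, 2809 and 3048 CPM in ERbeta and 2596, 3001 and 2493 CPM in EV_Ctrl, and the 5 regulators to 666, 685 and 679 CPM in ERbeta and 700.1, 687 and 739 CPM in EV_Ctrl. In bulk RNA, fewer expressing cells and less RNA per cell cannot be told apart.

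The comparison of ERbeta with EV_Ctrl asks whether a β-sheet protein in the ER lumen changes this membrane-controlled programme. No member passed the test. With edgeR's quasi-likelihood test, adjusted after Benjamini and Hochberg over all 16243 genes tested, 0 of 31 members had an adjusted p under 0.05, where the share over all genes was 0.0% (0 genes). The smallest adjusted p among the members was 0.397. At an unadjusted p under 0.05, 3 members were higher (SC5D, IDI1 and STARD4) and 0 were lower, where 9.54% of all genes were higher and 2.88% were lower. DESeq2's test called 0 members, against 0.432% of all genes higher and 0.00617% lower. limma-voom also called 0 members, against 0.00616% of all genes higher and 0.0% lower. Among the members, 0 had an adjusted p under 0.05 in the authors' deposited table, where 3.35% of the genes with an adjusted p were higher and 0.43% were lower. The smallest there, again in the authors' deposited table, was 0.0678 for SC5D.

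The differences were small. Of the 31 log2 fold changes (ERbeta over EV_Ctrl), 26 lay within 0.25 of 0, and the range ran from -0.28 to 0.73. The 95% interval of a single fold change, not adjusted for the number of genes, lay within -0.5 to 0.5 for 21 members and within -1 to 1 for 29. A doubling or halving of the mRNA therefore lay outside the interval for those 29, and the exceptions were SC5D and IDI1. The median was -0.05 over the sterol genes, -0.11 over the fatty acid genes and -0.07 over the regulators, and -0.01 over all 16243 genes. In all, 7 members were positive, where 48.3% of all genes were, and 24 were negative. With a correction for GC content, described below, 19 members were positive and 12 negative, where 9604 of 16091 genes were positive. The medians were then 0.05, 0.02 and 0.04 in the same order, with 0.05 over all genes.

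**Figure D2:**
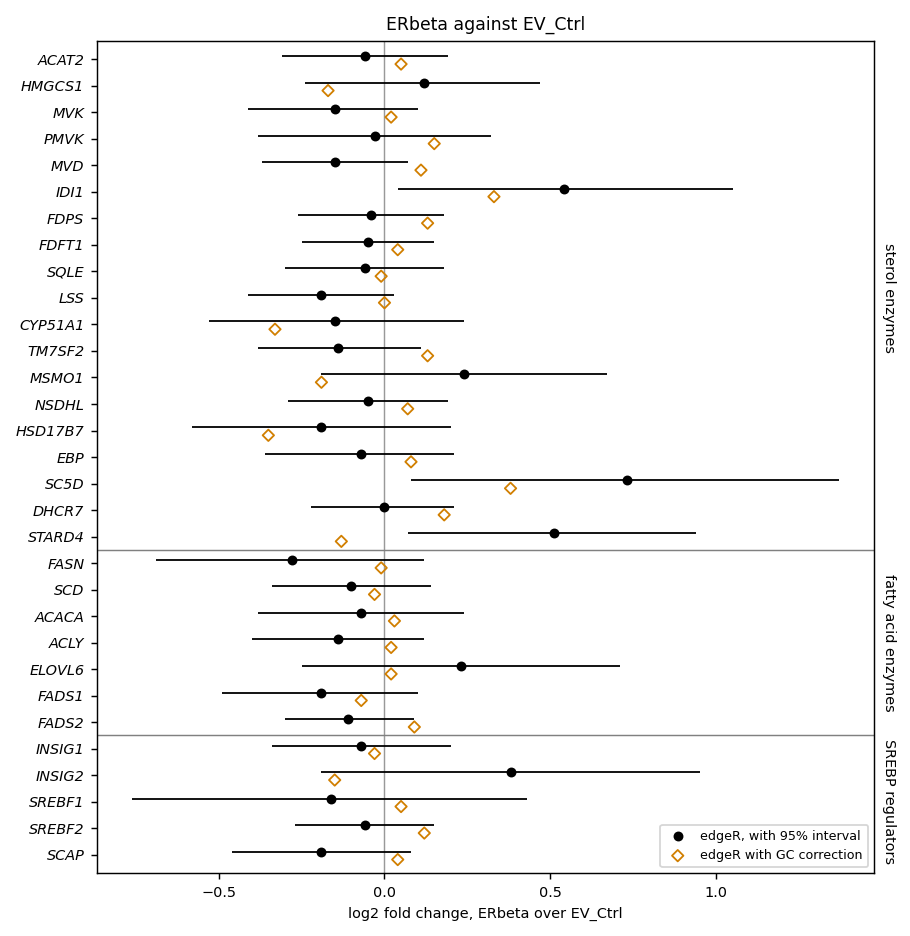
log2 fold change of ERbeta over EV_Ctrl for each of the 31 genes, as black points with 95% intervals from edgeR, and as open diamonds with a correction for GC content. All black points but 5 lie within 0.25 of 0, and the largest value, 0.73 for SC5D, is 0.38 with the correction.

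The regulators are given first. In GENCODE 29 on GRCh38 they lie at chr7:155297776-155310235 (INSIG1), chr2:118088452-118110997 (INSIG2), chr17:17810399-17837002 (SREBF1), chr22:41833079-41907308 (SREBF2) and chr3:47413694-47477126 (SCAP), all as protein-coding genes. INSIG1, the ER membrane anchor of SCAP and itself a sensitive SREBP target, was at 214, 246 and 275 CPM in ERbeta 1 to 3 and at 247, 253.5 and 270.2 CPM in EV_Ctrl 1 to 3. The groups overlapped, and the log2 fold change was -0.07 ± 0.12 (standard error; 95% interval -0.34 to 0.20). Its paralog INSIG2, which has the same anchoring role and is in the liver less tied to SREBP activity, was at 28.9, 32.4 and 36.8 CPM in ERbeta and at 19.95, 35.4 and 19.2 CPM in EV_Ctrl. EV_Ctrl 1 and 3 were low, while EV_Ctrl 2 lay among the ERbeta libraries. INSIG2 had a log2 fold change of 0.38 ± 0.24 (edgeR adjusted p 0.508), which was 0.75 without EV_Ctrl 2 and -0.15 with the GC correction. Its transcript has a GC content of 35.4%, against 46.0% for INSIG1.

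SREBF2 encodes SREBP-2, the isoform that favours sterol genes. It was at 303, 285.5 and 277 CPM in ERbeta and at 305, 286 and 313 CPM in EV_Ctrl, a log2 fold change of -0.06 ± 0.09 with a 95% interval of -0.27 to 0.15. SREBF1, which encodes the isoforms SREBP-1a and SREBP-1c that favour fatty acid genes, was at 41.2, 45.4 and 22.5 CPM in ERbeta and at 45.2, 34.0 and 43.45 CPM in EV_Ctrl. ERbeta 3 alone was low, and without it the log2 fold change of SREBF1 was 0.09, against -0.16 ± 0.26 with all libraries. The count table does not separate its isoforms, which start at different promoters. SCAP, the escort of both precursors, was at 79.5, 75.7 and 67.8 CPM in ERbeta and at 83.3, 78.3 and 92.7 CPM in EV_Ctrl. Its log2 fold change was -0.19 ± 0.12 (edgeR adjusted p 0.487), and 0.04 with the GC correction.

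The balance within each pair of paralogs was also compared. INSIG1 reads per INSIG2 read were 7.39, 7.58 and 7.46 in ERbeta and 12.4, 7.17 and 14.1 in EV_Ctrl. The ERbeta ratios lay within a narrow band, EV_Ctrl 2 was just under it, and EV_Ctrl 1 and 3 were well above it. The mean log2 ratio differed by -0.53 between ERbeta and EV_Ctrl (exact two-sided permutation test, p = 0.4, where 3 against 3 can give no less than 0.1), by -0.82 without EV_Ctrl 2 (exact two-sided permutation test, p = 0.1, the smallest it can give) and by 0.11 with the GC correction. SREBF1 reads per SREBF2 read were 0.14, 0.16 and 0.08 in ERbeta and 0.15, 0.12 and 0.14 in EV_Ctrl. That difference in mean log2 ratio was -0.16 (exact two-sided permutation test, p = 0.8), and 0.13 without ERbeta 3.

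SREBPs bind sterol regulatory elements (SREs) beside sites of the factor NF-Y, the CCAAT boxes, and the promoters of the members were searched for both. RefSeq promoter windows on GRCh38.p14, from 250 bases before to 50 bases after each start, were found for 27 of 31 members. The SRE letters TCACNCCAC, read on both strands, were in a window of 1 of 27 members (SREBF2) and of 1.39% of the 27305 genes in the promoter table. The shorter letters CACNCCAC were in a window of 6 of 27 members (22.2%, exact 95% binomial interval 8.62% to 42.3%; INSIG1, SREBF2, IDI1, SC5D, SCD and ACACA) and of 7.05% of all genes. CCAAT, read on both strands and free to overlap other motifs, was in a window of 14 of 16 sterol genes, 4 of 6 fatty acid genes and 2 of 5 regulators, and of 39.7% of all genes. The ER stress element, read on both strands and a promoter motif of many ER chaperone genes, was in 0 of 27 members and in 0.0916% of all genes. A match describes the letters only. A missing match does not show that a gene lacks an SRE, because sites with other letters or outside the window were not counted. The stretch of the SREBF2 promoter that holds both kinds of site is shown because SREBP-2 is known to act on its own gene. It lies at chr22:41832962-41833013 on the plus strand, and capitals mark the SRE and, 18 bases after it, the CCAAT box, which reads ATTGG on this strand.
SREBF2: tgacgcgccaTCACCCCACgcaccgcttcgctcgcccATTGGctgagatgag
The other sequences are the CCAAT boxes nearest the start in the 3 sterol genes with the smallest p-values and in LSS, which had the lowest fold change of the sterol genes. They are written 5′ to 3′ on the strand of the gene, with the box in capitals, and lie at chr11:121292705-121292729 (SC5D, plus), chr10:1048959-1048983 (IDI1, minus), chr5:111512651-111512675 (STARD4, minus) and chr21:46228910-46228934 (LSS, minus).
SC5D: ccggtcgctgATTGGctggccgctc
IDI1: ggcgcgagcgATTGGctgcgcggcc
STARD4: cccgcgccagCCAATccgaacaagc
LSS: cggcgctctgATTGGttgcgtgggc
Because the box was in 14 of 16 sterol genes, its presence in these genes does not tell how it relates to the fold changes.

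The 7 enzymes from acetyl-CoA to farnesyl diphosphate had a median log2 fold change of -0.04, with 2 of 7 positive. HMGCS1, which forms HMG-CoA, was at 592, 620.4 and 752 CPM in ERbeta and at 534, 726 and 549 CPM in EV_Ctrl, a log2 fold change of 0.12 ± 0.15 that was -0.17 with the GC correction. IDI1, the isomerase that makes dimethylallyl diphosphate, was at 234, 253 and 289.5 CPM in ERbeta and at 148, 244 and 140.2 CPM in EV_Ctrl. EV_Ctrl 1 and 3 were low, and EV_Ctrl 2 lay above ERbeta 1, so the groups overlapped. The log2 fold change of IDI1 was 0.54 ± 0.22 (edgeR adjusted p 0.397). In IDI1, 14.8% of exon bases are shared with IDI2-AS1 on the opposite strand. Its fold change was 0.85 without EV_Ctrl 2, 0.09 without EV_Ctrl 1 and 3 and 0.33 with the GC correction. The kinases MVK and PMVK, the decarboxylase MVD, the farnesyl diphosphate synthase FDPS and ACAT2 lay between -0.15 and -0.03. For MVK and MVD every ERbeta library was below every EV_Ctrl library, by small margins: MVD was at 60.9, 61.2 and 57.9 CPM in ERbeta and at 67.9, 64.8 and 66.9 CPM in EV_Ctrl.

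From squalene to lanosterol, 0 of 3 enzymes were positive and the median was -0.06. FDFT1, the squalene synthase, was at -0.05 ± 0.09 and SQLE, the oxygen-dependent squalene epoxidase, at -0.06 ± 0.10 (log2 fold change ± standard error, edgeR). LSS, which closes the rings of lanosterol, was at 191, 189 and 174 CPM in ERbeta and at 224, 200.2 and 208 CPM in EV_Ctrl. The groups did not overlap, and LSS had a log2 fold change of -0.19 ± 0.10 (edgeR adjusted p 0.420), and -0.00 with the GC correction. Its transcript has a GC content of 58.3%.

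Of the 8 enzymes from lanosterol to cholesterol 2 were positive, with a median of -0.06. SC5D, the lathosterol desaturase, was at 127, 127 and 152 CPM in ERbeta and at 61.4, 123 and 59.6 CPM in EV_Ctrl. All ERbeta libraries were above all EV_Ctrl libraries, but EV_Ctrl 2 lay just under ERbeta 1 and 2, while EV_Ctrl 1 and 3 were far lower. The log2 fold change of SC5D was 0.73 ± 0.28 (95% interval 0.08 to 1.37; edgeR adjusted p 0.397), and it was 1.17 without EV_Ctrl 2, 0.14 without EV_Ctrl 1 and 3 and 0.38 with the GC correction. HSD17B7, a 3-ketosteroid reductase, was at 13.96, 17.3 and 13.9 CPM in ERbeta and at 19.7, 18.1 and 13.85 CPM in EV_Ctrl, with overlap, a log2 fold change of -0.19 ± 0.17 and, with the GC correction, -0.35. MSMO1, the methyl sterol oxidase, was at 0.24 ± 0.19, and -0.19 with the GC correction. DHCR7, which makes cholesterol from 7-dehydrocholesterol, was at 135, 139.7 and 129.9 CPM in ERbeta and at 135, 139.9 and 130.4 CPM in EV_Ctrl, a log2 fold change of -0.00 with a 95% interval of -0.22 to 0.21. The remaining enzymes of this segment were CYP51A1, TM7SF2, NSDHL and EBP, and they lay between -0.15 and -0.05.

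STARD4, a gene picked with its values in view, carries sterols between membranes. It had 119, 115 and 156 CPM in ERbeta and 74.95, 113 and 86.0 CPM in EV_Ctrl. The groups did not overlap, with EV_Ctrl 2 just under ERbeta 2. STARD4 had a log2 fold change of 0.51 ± 0.19 (edgeR adjusted p 0.397), 0.70 without EV_Ctrl 2, 0.21 without EV_Ctrl 1 and 3 and -0.13 with the GC correction. Over all 31 members the groups did not overlap for 2 that were higher (SC5D and STARD4) and 5 that were lower (MVK, MVD, LSS, TM7SF2 and FADS2), where 10.2% of all genes were higher and 8.48% were lower without overlap.

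**Figure D3:**
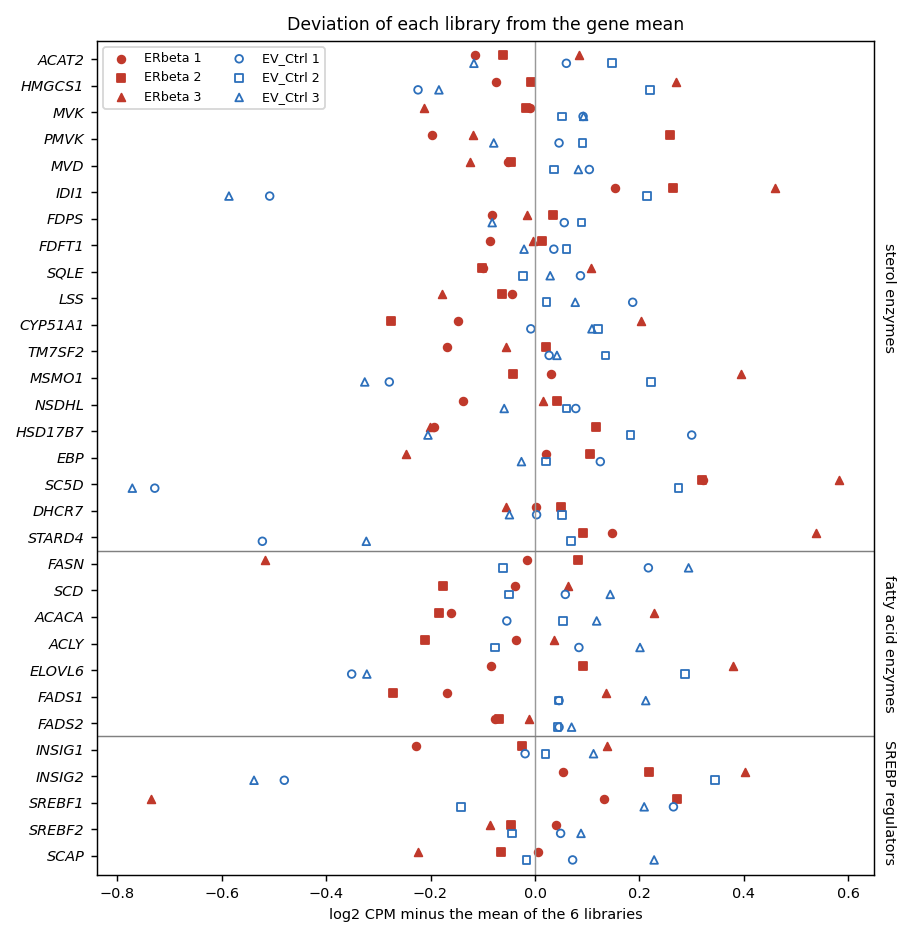
log2 CPM of each of the 31 genes in each library minus its mean over the 6 libraries, with ERbeta libraries as filled red symbols just above the EV_Ctrl libraries as open blue symbols. For IDI1, SC5D, STARD4, MSMO1, ELOVL6 and INSIG2 the circle and triangle of EV_Ctrl 1 and 3 lie to the left and the square of EV_Ctrl 2 lies near the ERbeta libraries.

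Among the fatty acid genes 1 of 7 was positive. FASN was at 806, 863 and 569 CPM in ERbeta and at 946, 780.4 and 998.5 CPM in EV_Ctrl. ERbeta 3 was lowest and EV_Ctrl 2 lay under ERbeta 1 and 2, so the groups overlapped. The log2 fold change of FASN was -0.28 ± 0.17 (95% interval -0.69 to 0.12; edgeR adjusted p 0.486), -0.12 without ERbeta 3 and -0.01 with the GC correction. SCD was at 947, 861 and 1018 CPM in ERbeta and at 1013, 940.4 and 1076 CPM in EV_Ctrl, a log2 fold change of -0.10 ± 0.10. FADS1, the delta-5 desaturase of polyunsaturated fatty acids, was at 214, 199.7 and 265 CPM in ERbeta and at 249, 249 and 279 CPM in EV_Ctrl, at -0.19 ± 0.13. For both desaturases the highest ERbeta library lay above the lowest EV_Ctrl library, so the groups overlapped.

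ELOVL6, the elongase of palmitate, was the positive member, at 53.5, 60.45 and 73.8 CPM in ERbeta and at 44.5, 69.3 and 45.4 CPM in EV_Ctrl. EV_Ctrl 2 was again above ERbeta 1 and 2, and the log2 fold change of 0.23 ± 0.21 was -0.14 without EV_Ctrl 1 and 3. ACACA, the acetyl-CoA carboxylase that commits acetyl-CoA to fatty acids, was at 260.4, 256 and 341 CPM in ERbeta and at 280.3, 302 and 316 CPM in EV_Ctrl, a log2 fold change of -0.07 ± 0.13. ERbeta 3 was the highest of the 6 libraries for ACACA, and without ERbeta 3 it was at -0.21. ACLY was at -0.14 ± 0.11 and FADS2, the delta-6 desaturase, at -0.11 ± 0.08. FADS1 and FADS2 overlap on opposite strands, over 4.8% of the exon bases of FADS1 and 4.4% of those of FADS2.

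The sign of a member's fold change went with the GC content of its transcript. The members were split at a GC content of 45%, chosen with the values in view. Of the 9 members below it (34.2% to 41.7%: HMGCS1, IDI1, CYP51A1, MSMO1, HSD17B7, SC5D, STARD4, ELOVL6 and INSIG2), 7 were positive with a median of 0.24. Of the 22 members from 46.0% to 65.3%, 0 were positive and the median was -0.09. The same held across all tested genes, with 81.2% positive below 45% GC (5928 genes, median 0.26) and 29.2% at or above it (10163 genes, median -0.10). As a description across genes, which share libraries and depth, Pearson's r between GC content and log2 fold change was -0.70 over the 31 members and -0.55 over 16091 genes. The median log2 deviation of the 9 members was 0.03, 0.09 and 0.39 in ERbeta 1 to 3 and -0.35, 0.22 and -0.32 in EV_Ctrl 1 to 3. By that median EV_Ctrl 2 lay above ERbeta 1 and 2, but for SC5D and STARD4 it lay below both.

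With a smooth GC trend taken out of each library, 3 of the 9 members under 45% GC were positive (SC5D at 0.38, IDI1 at 0.33 and ELOVL6 at 0.02), with a median of -0.15, and 16 of the 22 others were positive, with a median of 0.05. Over all tested genes 54.55% were then positive below 45% GC (median 0.03) and 62.7% at or above it (median 0.05). Pearson's r between GC content and corrected log2 fold change was 0.37 over the 31 members and 0.02 over 16091 genes. The corrected values of the members thus still went with GC content, in the opposite direction. The correction called 0 of 31 members, where 0.137% of all genes were called higher and 0.0% lower. Without EV_Ctrl 2, edgeR's test called 4 of 31 members higher (SC5D, IDI1, STARD4 and INSIG2) and 0 lower, where 13.5% of all genes were higher and 0.775% lower. All 4 have a GC content under 45%. With both changes together 2 members were called higher, SC5D at 0.60 (edgeR adjusted p 0.00176) and IDI1 at 0.53 (edgeR adjusted p 0.00522), where 9.13% of all genes were higher and 2.2% lower.

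**Figure D4:**
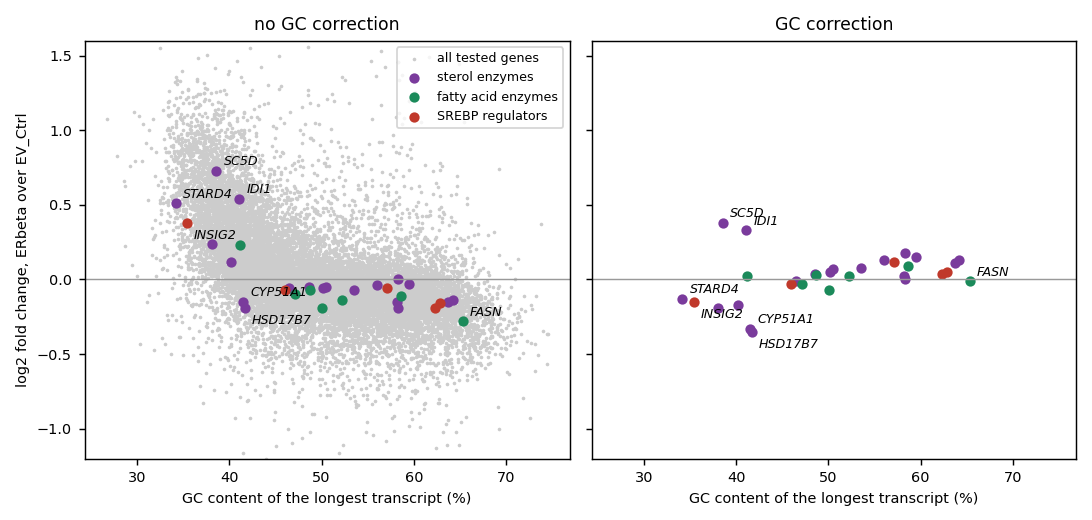
GC content of the longest transcript of each gene (percent) against its log2 fold change of ERbeta over EV_Ctrl, without (left, with all tested genes in grey) and with (right, the 31 genes only) a correction for GC content. Genes beyond the vertical limits are not drawn. On the left the 22 members of higher GC content lie at or below 0, and on the right SC5D and IDI1, at 0.38 and 0.33, are the members farthest above 0.

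Other genes of the pathway fell into 4 lists. Of 14 genes of SREBP cleavage and sterol sensing 0 passed edgeR's adjusted threshold, with a median log2 fold change of -0.06. RNF139, an ER ubiquitin ligase that binds INSIG, averaged 34.3 ± 2.46 CPM in ERbeta libraries, against 27.3 ± 3.92 CPM in EV_Ctrl libraries (SD over 3 libraries of each group), a log2 fold change of 0.32 ± 0.14 and, with the GC correction, 0.31. MBTPS1, the site-1 protease that cleaves SREBPs and ATF6 in the Golgi, averaged 207 ± 1.78 CPM in ERbeta libraries, against 229 ± 13.99 CPM in EV_Ctrl libraries, with -0.14 ± 0.09 and, corrected, -0.01. Of 5 genes of the sterol-activated LXR receptors and their targets 4 were tested and 0 passed, with a median of 0.06. NR1H3, which encodes LXRα, averaged 17.1 ± 2.82 CPM in ERbeta libraries, against 13.6 ± 0.956 CPM in EV_Ctrl libraries, with 0.32 ± 0.15 and, corrected, 0.48. MYLIP, an LXR-induced ubiquitin ligase, was at 0.16 ± 0.10 and, corrected, 0.19.

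Of 10 genes listed as isoprenoid branches, 0 passed, 9 were positive, where 48.3% of all genes were, and the median was 0.15. The list includes ACAT1, at 0.10 ± 0.15, although it is not an enzyme of an isoprenoid branch. The median GC content of the 10 was 42.7%. With the GC correction 7 of the 10 were positive, where 9604 of 16091 genes were. Their median was then 0.10, with 0.05 over all genes. PGGT1B, a prenyltransferase subunit, averaged 31.6 ± 5.60 CPM in ERbeta libraries, against 20.1 ± 5.08 CPM in EV_Ctrl libraries, with 0.63 ± 0.21 and, with the GC correction, 0.01. NUS1, a subunit of the dolichol-chain synthase, was at 0.40 ± 0.14 and, corrected, -0.07. Of 18 other genes of fatty acid and lipid synthesis 0 passed, with a median of -0.02. HSD17B12, the ketoacyl reductase of ER fatty acid elongation, averaged 141 ± 23.8 CPM in ERbeta libraries, against 85.3 ± 25.8 CPM in EV_Ctrl libraries, with 0.72 ± 0.22 and, corrected, 0.29. ACSL3, an acyl-CoA synthetase of the ER and lipid droplets, was at 0.57 ± 0.20 and, corrected, 0.15. The largest fold change of this list was that of ACSL4, an acyl-CoA synthetase that prefers arachidonate, named here after its values were seen. It was at 93.7, 90.15 and 116.5 CPM in ERbeta and at 35.05, 85.6 and 37.4 CPM in EV_Ctrl, with EV_Ctrl 2 just under ERbeta 2 and EV_Ctrl 1 and 3 far lower. The log2 fold change of ACSL4 was 0.91 ± 0.33 (edgeR adjusted p 0.397), 1.47 without EV_Ctrl 2, 0.23 without EV_Ctrl 1 and 3 and 0.50 with the GC correction. The transcripts of PGGT1B, NUS1, HSD17B12, ACSL3 and ACSL4 have GC contents of 34.0% to 38.1%.

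Without EV_Ctrl 2, edgeR's test called 3 of these 18 genes higher (ACSL4, HSD17B12 and ACSL3, with adjusted p of 7.9e-05, 0.000866 and 0.000917) and 2 of the 10 isoprenoid genes (GGPS1, the geranylgeranyl diphosphate synthase, at 0.00114 and PGGT1B at 0.00501). It called 0 genes of the cleavage and LXR lists, and the share over all genes was the 13.5% higher given above. With the GC correction added, it called RNF139 (0.45, edgeR adjusted p 0.0212) and NR1H3 (0.61, edgeR adjusted p 0.038) higher. It then called 1 isoprenoid gene and 2 of the 18 higher, and 1 of the 18 and 1 cleavage gene lower. PGGT1B was at -0.01 and ACSL3 at 0.21 (edgeR adjusted p 0.19). Over all genes 9.13% were higher and 2.2% lower in that fit.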

How the data were processed

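RNA was measured by stranded mRNA sequencing in 3 ERbeta and 3 EV_Ctrl libraries, grouped by the labels. The authors deposited raw whole-number counts per gene and library, and TopHat2, featureCounts, DESeq2 and the build hg38 are named in the submitters' processing notes. No versions, annotation or strand setting were given in the sources used here. A second deposited table holds, per the file headers, the authors' own DESeq2 comparison as a mean signal, log2 fold changes with standard errors, a test statistic (a score with no fixed range) and p-values. It was used only where it is named.

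The members and lists were chosen with earlier results of these data known, so no p-value was adjusted over a list. Genes were kept with filterByExpr (minimum count 10, minimum total 15; 16243 genes), scaled by TMM and tested for the effect of group with edgeR 4.0.16 (R 4.3.3), without covariates and at a threshold of 0.05 on the Benjamini-Hochberg adjusted p. Standard errors come from the quasi-likelihood F statistic. Lengths and loci are from GENCODE 29 on GRCh38, and 99.9% of counts fell in genes with a length. TPM uses the union of annotated exons, so a gene with long rare exons is understated. The GC correction fits log2 CPM to the GC content of the longest transcript by loess (span 0.5) in each library and enters it as an offset (99.1% of tested genes had a value). DESeq2 1.42.0 and limma 3.58.1 served for alternatives. Values in every library are given for the regulators, the 2 largest rises and falls of each other subgroup and the highest TPM, and of each other list the 2 genes with the smallest p are named. Other genes were chosen after their values were seen. The searches for CCAAT and for the ER stress element were also added after seeing the data. The steps were tested on simulated counts. No libraries of a group agreed within counting noise, with a chi-square per degree of freedom of 4.74 to 38.7. No other columns of samples were in the table. One list of marker genes is not reported here.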

Additional observations from a re-analysis of the deposited data

How the results depend on the processing

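Other scalings, filters and tests left all members uncalled, while the count over all genes was 71 with DESeq2's test, 1 with limma-voom, 51 with no filter and 22 with the GC correction, against 0 with edgeR. Leaving out 1 library at a time gave 0 to 2324 genes and 0 to 4 members called, and all of these calls came without EV_Ctrl 2. That library and the GC correction were combined after seeing the data, which gave 1826 genes, 2 members and a sterol median of 0.15. The letters CACNCCAC in place of the longer SRE were in windows of 6 members (22.2% of 27), against 7.05% of all genes. Same-numbered libraries correlated at 0.221, -0.124 and -0.145 in their deviations from the group mean, and differently numbered ones at -0.356 to 0.346. These deviations also carry the GC trend of each library, so they cannot tell whether the numbers pair the libraries. The fit with the replicate number as a block called 0 genes and changed no call.

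The GC correction takes a trend with GC content out of each library, and with it the median over all genes went from -0.01 to 0.05. Log2 fold changes changed sign mainly with this correction, and the cause of each change was not tested. They were then 0.05 for ACAT2, -0.17 for HMGCS1, 0.02 for MVK, 0.15 for PMVK, 0.11 for MVD, 0.13 for FDPS and TM7SF2, 0.04 for FDFT1 and SCAP, -0.19 for MSMO1, 0.07 for NSDHL, 0.08 for EBP, 0.18 for DHCR7, -0.13 for STARD4, 0.03 for ACACA, 0.02 for ACLY, 0.09 for FADS2, -0.15 for INSIG2, 0.05 for SREBF1, 0.12 for SREBF2 and -0.07 for NUS1, and 0.11 for the log2 ratio of INSIG1 to INSIG2. With the replicate block added to the correction they were 0.06 for ACAT2, -0.17 for HMGCS1, 0.03 for MVK and SREBF1, 0.16 for PMVK, 0.1 for MVD, 0.13 for FDPS and TM7SF2, 0.05 for FDFT1, -0.19 for MSMO1, 0.07 for NSDHL, 0.08 for EBP and FADS2, 0.18 for DHCR7, -0.13 for STARD4, 0.02 for ACACA, 0.01 for ACLY, -0.14 for INSIG2, 0.12 for SREBF2, 0.04 for SCAP and -0.06 for NUS1. With the correction and without EV_Ctrl 2 they were 0.18 for ACAT2, -0.14 for HMGCS1, 0.09 for MVK and ACACA, 0.29 for PMVK and DHCR7, 0.17 for MVD and FADS2, 0.25 for FDPS and TM7SF2, 0.12 for FDFT1, 0.0 for SQLE, 0.04 for LSS, -0.18 for MSMO1 and STARD4, 0.16 for NSDHL and SREBF2, 0.15 for EBP, 0.01 for ACLY and MBTPS1, -0.06 for INSIG2, 0.02 for SREBF1, 0.07 for SCAP, -0.17 for NUS1 and -0.01 for PGGT1B.

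Without EV_Ctrl 1 and 3 the values that changed sign were -0.15 for HMGCS1, -0.08 for MSMO1, 0.01 for SCD and ACLY, -0.14 for ELOVL6, -0.11 for INSIG2, 0.1 for SREBF1 and 0.02 for SREBF2, and the cause was not tested. With 1 EV_Ctrl library left, the spread in that fit comes from the ERbeta libraries and is taken to hold for both groups. Leaving out 1 library gave -0.17 to 0.05 for PMVK, -0.16 to 0.01 for INSIG1, -0.21 to 0.01 for ACACA, -0.14 to 0.02 for EBP, -0.03 to 0.03 for DHCR7, -0.34 to 0.09 for SREBF1, -0.13 to 0.01 for ACAT2 and -0.36 to 0.13 for the log2 ratio of SREBF1 to SREBF2. Total counts per library, which limit the precision of each value, ran from 6833442 to 27101644.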
